A study of Mus musculus with 6 samples.

Results

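The 10 genes described here are common markers of alternative (M2-like) activation of macrophages, and they were followed in RNA-seq of MSR1 KO and MSR1 WT macrophages. They were taken by gene symbol, namely Mrc1, Cd163, Clec10a, Mgl2, Il4ra, Il10, Arg1, Retnla, Chil3 and Ccl24. All 10 were found among the 52550 genes of the deposited count table and all 10 were among the 16402 genes with enough counts to be tested. The cells were bone marrow-derived macrophages (BMDMs) of C57BL/6 mice, grown from bone marrow for 7 days with 25 ng/ml M-CSF, the growth factor that drives monocyte precursors to macrophages. They were then held for 48 h in transwell co-culture with bone marrow stem cells (BMSCs), so that the cell types shared medium across a membrane. The MSR1 KO libraries (n = 3) came from mice that lack macrophage scavenger receptor 1 and the MSR1 WT libraries (n = 3) from wild-type mice. The labels give no number of mice behind a library and do not give the genotype of the BMSCs. There was no library of macrophages without BMSCs and none treated with IL-4 or IL-13, so the markers can be compared between genotypes in the co-culture only.

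Macrophages take up the alternatively activated state when IL-4 or IL-13 binds a receptor that contains IL-4Rα, and Janus kinases then phosphorylate the transcription factor STAT6. STAT6 binds DNA at a palindrome with a spacer of 4 bases and turns on Arg1, Retnla, Chil3, Mrc1, Clec10a and Mgl2 in mouse cells. Cd163 and Il10 belong to a related state that glucocorticoids and IL-10 induce, and M-CSF alone also raises some of these genes. In bone, macrophages of this kind are known for clearing debris and for secreting factors that act on osteoprogenitors.

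Total counts per library lay between 36143518 and 47417448, and 3 counts, taken here as the limit that a count of 0 allows, equal 0.0632 to 0.0835 CPM (counts scaled to the library size). Msr1 itself kept 1825 to 2118 counts per MSR1 KO library, whereas each MSR1 WT library had 7543 to 9219, and its log2 fold change was -2.02 (SE 0.14, adjusted p = 0.0012). The 15 macrophage markers summed to between 28680 and 29910 CPM in MSR1 KO and to between 27850 and 30440 CPM in MSR1 WT. Macrophage markers were thus abundant in every library, and stromal markers were also present, as described below. Here and throughout, adjusted p-values are those of edgeR's quasi-likelihood test after Benjamini-Hochberg correction for all tested genes, log2 fold changes are MSR1 KO minus MSR1 WT, SE is the standard error, and values per group are means ± SD.

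Across the 10 markers, there was no common direction. Il4ra rose and Mrc1 fell at an adjusted p under 0.05, and the other 8 did not pass. Over all tested genes, 2.25% rose and 2.66% fell by the same test. By the study's own criterion for a DEG, a fold change above 1.5 with an unadjusted p under 0.05, Il10, Arg1 and Retnla were higher and none was lower, against 3.59% higher and 5.05% lower of all tested genes. All MSR1 KO libraries lay above all MSR1 WT libraries for Il4ra and Il10 and below them for Mrc1, where 12.1% of all tested genes lay wholly above and 13.4% wholly below. The median log2 fold change of the 10 markers was 0.24, beside -0.0023 over all tested genes. The median of the markers was -0.061 without MSR1 KO replicate 1 and 0.18 to 0.39 without any other library.

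**Figure D1:**
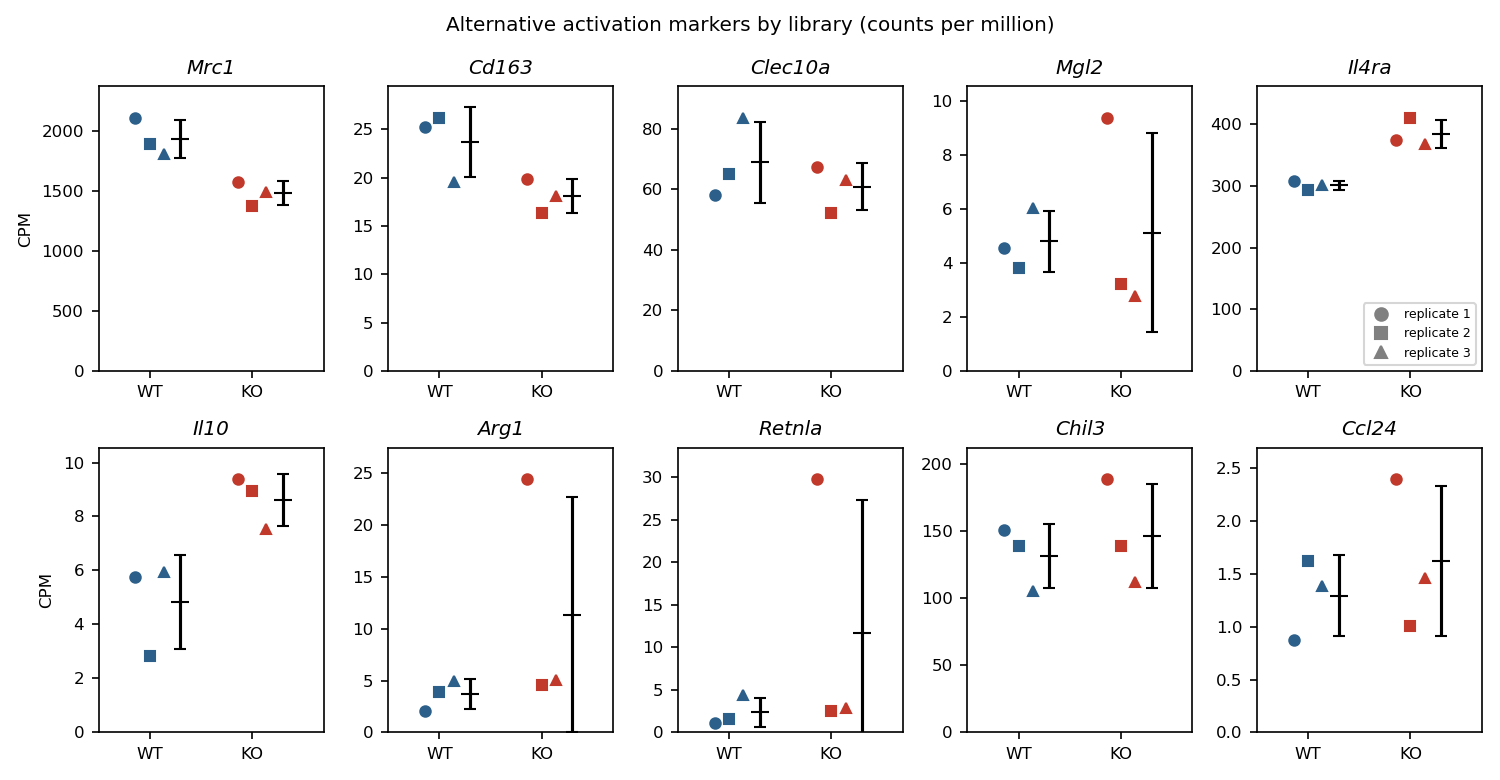
Level of each of the 10 markers in CPM (y axis, linear, from 0) in the 3 MSR1 WT and the 3 MSR1 KO libraries, with 1 symbol shape per replicate number and the mean ± SD beside the points (SD bars are cut at 0 for Arg1 and Retnla). Il4ra, Il10 and Mrc1 separate the groups, whereas a single MSR1 KO library (replicate 1) lies far above the other 5 for Arg1 and Retnla and 1.56 times above the next for Mgl2.

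Among the receptors, Mrc1 (ENSMUSG00000026712.3) encodes CD206, the mannose receptor that internalizes glycoproteins, and it was the most abundant of the 10 markers. It lies on chromosome 2 from 14229392 to 14332057 on the plus strand of GRCm38. In MSR1 KO it had 1572, 1376 and 1496 CPM, and in MSR1 WT 2112, 1890 and 1808 CPM. Each MSR1 KO library was below each MSR1 WT library. The mean fell by 23.5%, from 1937 ± 157 CPM to 1481 ± 98.4 CPM, a log2 fold change of -0.39 (SE 0.081, adjusted p = 0.037). The call held without MSR1 WT replicate 3 (adjusted p = 0.041) and was lost without any of the other 5 libraries, with an adjusted p up to 0.127, while the log2 fold change stayed between -0.43 and -0.32.

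Relative to Csf1r, the M-CSF receptor that all macrophages carry, Mrc1 showed the same separation. The ratio of Mrc1 to Csf1r was 0.348, 0.302 and 0.330 in MSR1 KO and 0.480, 0.419 and 0.417 in MSR1 WT. The exact two-sided permutation test gave p = 0.1, the smallest that 3 against 3 libraries allows. In bulk RNA, fewer cells of a type and less RNA per cell cannot be told apart. Other cell types moved beside it. Of the 15 stromal markers tested, 0 rose and 6 fell, with a median log2 fold change of -0.62 and with sums of 1919 to 2480 CPM in MSR1 KO and 2744 to 3488 CPM in MSR1 WT, and none was at 0. In 9 of the 15 each MSR1 KO library was below each MSR1 WT library. In 1, Thy1, each was above (log2 fold change 1.31, adjusted p = 0.091). The count that fell was 0 without MSR1 KO replicate 1 or MSR1 WT replicate 1, 2 without MSR1 KO replicate 3 and 5 to 7 without any other library. The count that rose was 1 without MSR1 WT replicate 3. The part of stromal cells in the fall of Mrc1 was not tested.

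Cd163 (ENSMUSG00000008845.9, chromosome 6 from 124304656 to 124330527) is the receptor for haptoglobin bound to haemoglobin. Its levels were 19.9, 16.4 and 18.1 CPM in MSR1 KO and 25.3, 26.2 and 19.6 CPM in MSR1 WT. In CPM the groups overlapped, since MSR1 WT replicate 3 lay just below MSR1 KO replicate 1. The means were 18.1 ± 1.76 and 23.7 ± 3.60 CPM, with a log2 fold change of -0.39 (SE 0.14) of the same size as that of Mrc1 but an adjusted p of 0.17. Relative to Csf1r the groups did not overlap, with a ratio of 0.00440, 0.00358 and 0.00400 in MSR1 KO and of 0.00575, 0.00581 and 0.00451 in MSR1 WT (exact permutation p = 0.1). Csf1r itself was higher in each MSR1 KO library (4518, 4565 and 4533 CPM) than in each MSR1 WT library (4397, 4507 and 4333 CPM). Dividing by it lowers the ratios of MSR1 KO, so this separation of Cd163 rests on the reference.

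Clec10a and Mgl2 are neighbouring genes on chromosome 11 that encode the galactose-type C-type lectins of mouse macrophages, which bind glycans ending in galactose or N-acetylgalactosamine. Clec10a (ENSMUSG00000000318.16) spans 70156197 to 70170834 and Mgl2 (ENSMUSG00000040950.13) spans 70130329 to 70137550. Clec10a had 67.3, 52.1 and 63.1 CPM in MSR1 KO and 58.1, 64.9 and 83.6 CPM in MSR1 WT. The ranges overlapped, and the log2 fold change was -0.18 (SE 0.15, adjusted p = 0.59). With 1 library left out it ran from -0.29 (MSR1 WT replicate 1) to -0.015 (MSR1 WT replicate 3). Mgl2 had 9.38, 3.22 and 2.78 CPM in MSR1 KO and 4.56, 3.81 and 6.03 CPM in MSR1 WT. Replicate 1 of MSR1 KO was the highest of the 6 libraries while replicates 2 and 3 were the lowest. The log2 fold change was 0.09 (SE 0.45, adjusted p = 0.94), and without MSR1 KO replicate 1 it was -0.67 with an adjusted p of 0.25. The pair share sequence, since 12.2% of the 50-base words of Mgl2 transcripts also occur in Clec10a transcripts, so reads on the shared stretches may be split between them and the values of Mgl2 in particular are uncertain.

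Il4ra (ENSMUSG00000030748.9, chromosome 7 from 125552120 to 125579474, plus strand) encodes IL-4Rα, the chain through which both IL-4 and IL-13 signal. It had 374.1, 411.1 and 368.0 CPM in MSR1 KO and 308.1, 294.1 and 301.7 CPM in MSR1 WT. Every MSR1 KO library exceeded every MSR1 WT library, and the MSR1 WT libraries lay close together. The mean rose by 27.6%, from 301 ± 7.04 to 384 ± 23.3 CPM (log2 fold change 0.35, SE 0.068, adjusted p = 0.030). Without single libraries the log2 fold change ran from 0.30 to 0.39, and the call held only without MSR1 KO replicate 3 (adjusted p = 0.048). The ratio of Il4ra to Csf1r was 0.083, 0.090 and 0.081 in MSR1 KO and 0.070, 0.065 and 0.070 in MSR1 WT (exact permutation p = 0.1). Il4ra shares 571 exon bases with the antisense gene Gm44876, which had at most 42 counts in a library. Since the strand setting of the counting is not given in the sources used here, reads of that pair cannot be told apart on those bases.

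The other genes of the IL-4 and IL-13 signalling list were set beside Il4ra. Of its 20 genes 18 were tested, of which 3 rose, 0 fell and 15 did not pass, with a median log2 fold change of 0.019. With 1 library left out the median ran from -0.0045 (MSR1 WT replicate 2) to 0.065 (MSR1 KO replicate 2). The common γ chain Il2rg, which pairs with IL-4Rα in the type I receptor, had 251.0, 268.6 and 241.6 CPM in MSR1 KO and 196.6, 161.3 and 191.9 CPM in MSR1 WT (log2 fold change 0.47, SE 0.091, adjusted p = 0.029). Jak3, the kinase bound to the γ chain, had 57.4, 64.6 and 58.9 CPM against 43.7, 45.0 and 47.2 CPM (log2 fold change 0.41, SE 0.080, adjusted p = 0.030). Socs1, a feedback inhibitor of JAK kinases that interferons and IL-4 both induce, had 5.26, 5.30 and 4.41 CPM against 2.13, 1.12 and 2.59 CPM (log2 fold change 1.36, SE 0.30, adjusted p = 0.045). For these 3 genes each MSR1 KO library was above each MSR1 WT library. The 3 calls held without MSR1 WT replicate 3 and were lost without any other single library, where 0 genes of the list passed.

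Interferon-response genes, which earlier results of these data had shown to move, rose in 14 of 16 cases, and their summed level was 2963 to 4861 CPM in MSR1 KO and 1081 to 1879 CPM in MSR1 WT. That count depended on single libraries, with 1, 5 and 9 genes called when MSR1 KO replicate 1, 2 or 3 was left out and 1, 3 and 15 when MSR1 WT replicate 1, 2 or 3 was. The part of that rise in Socs1 was not tested.

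The ligands and the transcription factor did not pass the test or were at 0. Il4 was at 1.13 ± 0.45 CPM in MSR1 KO and 1.51 ± 0.17 CPM in MSR1 WT (log2 fold change -0.41, adjusted p = 0.60), and Il13 and the decoy receptor Il13ra2 had 0 counts in all 6 libraries. Stat6 stood at 0.13 on the log2 scale (adjusted p = 0.28), though each MSR1 KO library was above each MSR1 WT library. It had 355.2, 349.7 and 348.1 CPM against 317.8, 316.4 and 327.5 CPM. Of the 18 tested genes of the list, 4 lay wholly above in MSR1 KO and 2, Jak1 and Myc, wholly below. Il13ra1, the partner of IL-4Rα in the type II receptor, was at -0.05 on the log2 scale. Pparg, a nuclear receptor that sustains the alternatively activated state, had a log2 fold change of 0.03.

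**Figure D2:**
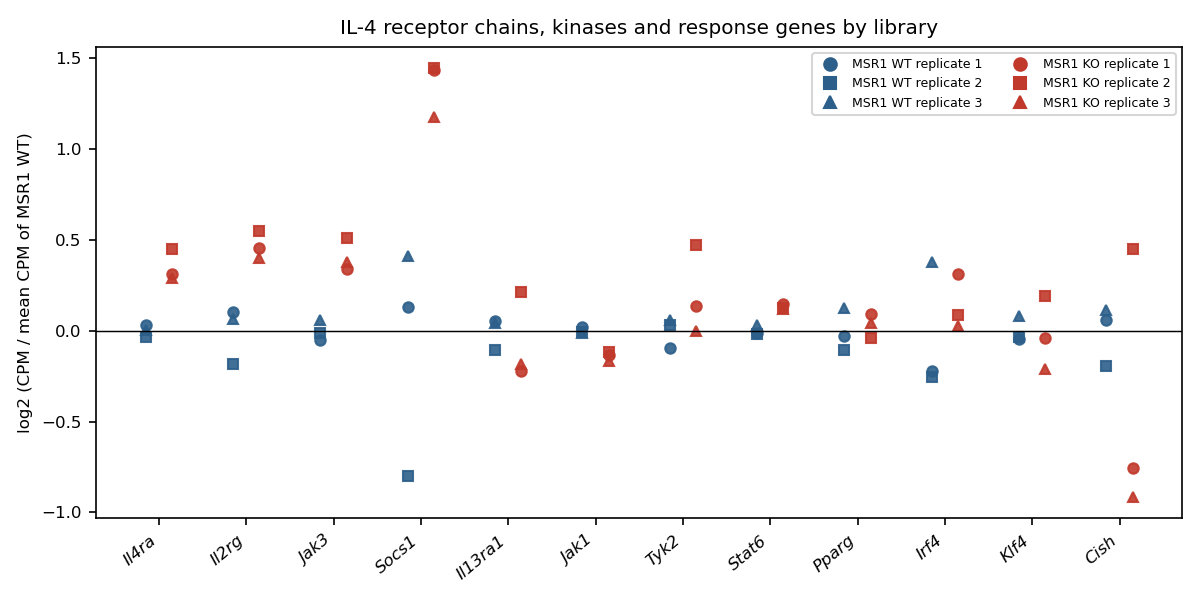
Level of 12 genes of IL-4 and IL-13 signalling in each library, as log2 of CPM over the mean CPM of MSR1 WT (y axis; 0 is that mean), with blue symbols for MSR1 WT, red for MSR1 KO and a shape per replicate number. Il4ra, Il2rg, Jak3 and Socs1 have all red symbols above all blue ones, while the symbols of Il13ra1, Pparg and Irf4 intermix.

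Il10 (ENSMUSG00000016529.5, chromosome 1 from 131019845 to 131024974) encodes the anti-inflammatory cytokine IL-10. It had 337, 356 and 350 counts in MSR1 KO and 237, 134 and 245 counts in MSR1 WT, or 9.38, 8.94 and 7.53 CPM against 5.75, 2.82 and 5.93 CPM. Each MSR1 KO library exceeded each MSR1 WT library, and MSR1 WT replicate 2 stood below the other two. The means were 8.62 ± 0.97 and 4.83 ± 1.74 CPM, a log2 fold change of 0.84 (SE 0.27) with an adjusted p of 0.14. By the Wald test of DESeq2, which called more genes overall (4.39% higher and 5.17% lower), the adjusted p was 0.032. Leaving out single libraries gave log2 fold changes from 0.56 to 1.01. None of the 10 genes of the IL-10 signalling list passed by edgeR, 1 of them had an unadjusted p under 0.05, and DESeq2 called 0, with a median log2 fold change of 0.16. That median was 0.063 without MSR1 KO replicate 1 and 0.13 to 0.21 without any other library.

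Arg1 and Retnla are the classic mouse markers of the IL-4 response. Arg1 (ENSMUSG00000019987.9, chromosome 10 from 24915221 to 24927484, minus strand) encodes arginase 1, which splits arginine into ornithine and urea. Retnla (ENSMUSG00000061100.3, chromosome 16 from 48842552 to 48844461, plus strand) encodes the secreted protein RELMα. In both, the mean of MSR1 KO was set by replicate 1.

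Arg1 had 878, 181 and 237 counts in MSR1 KO and 87, 186 and 206 counts in MSR1 WT. In CPM these were 24.4, 4.55 and 5.10 against 2.11, 3.92 and 4.99. Replicate 1 of MSR1 KO was 4.79 times the next library, and the other 5 libraries lay between 2.11 and 5.10 CPM. The means of 11.4 ± 11.3 and 3.67 ± 1.45 CPM gave a log2 fold change of 1.62 (SE 0.65, adjusted p = 0.22), which was 0.40 without MSR1 KO replicate 1.

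Retnla had 1070, 101 and 133 counts in MSR1 KO and 48, 74 and 180 counts in MSR1 WT. In CPM these were 29.8, 2.54 and 2.86 against 1.16, 1.56 and 4.36. Replicate 1 of MSR1 KO was 6.84 times the next library, MSR1 WT replicate 3, which in turn exceeded the other MSR1 KO libraries. The log2 fold change of 2.31 (SE 0.98, adjusted p = 0.25) was 0.20 without MSR1 KO replicate 1. DESeq2 gave no p-value for Retnla. Both genes were DEGs by the study's criterion with all 6 libraries. Neither was without MSR1 KO replicate 1, MSR1 WT replicate 1 or MSR1 WT replicate 2.

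The same library stood above the others in few genes. Among 13611 genes with a mean of at least 1 CPM, replicate 1 of MSR1 KO was at least 4 times the next library in 3 genes, Slc26a10, Retnla and Arg1, and at least 1.5 times in 56 genes (0.411%). The other 5 libraries led by 1.5 times in 28 to 67 genes. Of the 10 markers, 3 were in that set, Arg1, Retnla and Mgl2. Outside the markers, Il10ra, the ligand-binding chain of the IL-10 receptor, had 376.0, 173.9 and 151.7 CPM in MSR1 KO and 161.0, 144.9 and 175.8 CPM in MSR1 WT. Il4i1, a secreted amino acid oxidase induced by IL-4, had 4.87, 1.46 and 1.44 CPM against 1.82, 1.60 and 2.57 CPM. Rnase2a, an eosinophil-associated ribonuclease that alternatively activated macrophages also make, had 101, 10 and 18 counts against 6, 11 and 0. These 3 genes and Slc26a10 were singled out after their values were seen.

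Markers of other cells in MSR1 KO replicate 1 were as follows. It was the highest library for 13 of the 15 neutrophil and precursor markers, whose summed level was 1431, 1051 and 1004 CPM in MSR1 KO and 1112, 950.0 and 698.5 CPM in MSR1 WT. The count of 13 was not set beside the share of all genes that are highest in this library. Of the 14 markers with a mean of at least 1 CPM, it led by 1.5 times in 1, Cxcr2. By edgeR 0 of these 15 genes passed, 4 had an unadjusted p under 0.05, and DESeq2 called 3. The count of 4 was not set beside the share of all tested genes at that threshold. Eosinophil markers summed to between 17.5 and 19.5 CPM in MSR1 KO and to at most 19.6 CPM in MSR1 WT, and Epx, the eosinophil peroxidase, had 4, 0 and 16 counts against 8, 0 and 8. The part of these cells in Arg1 and Retnla was not tested.

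**Figure D3:**
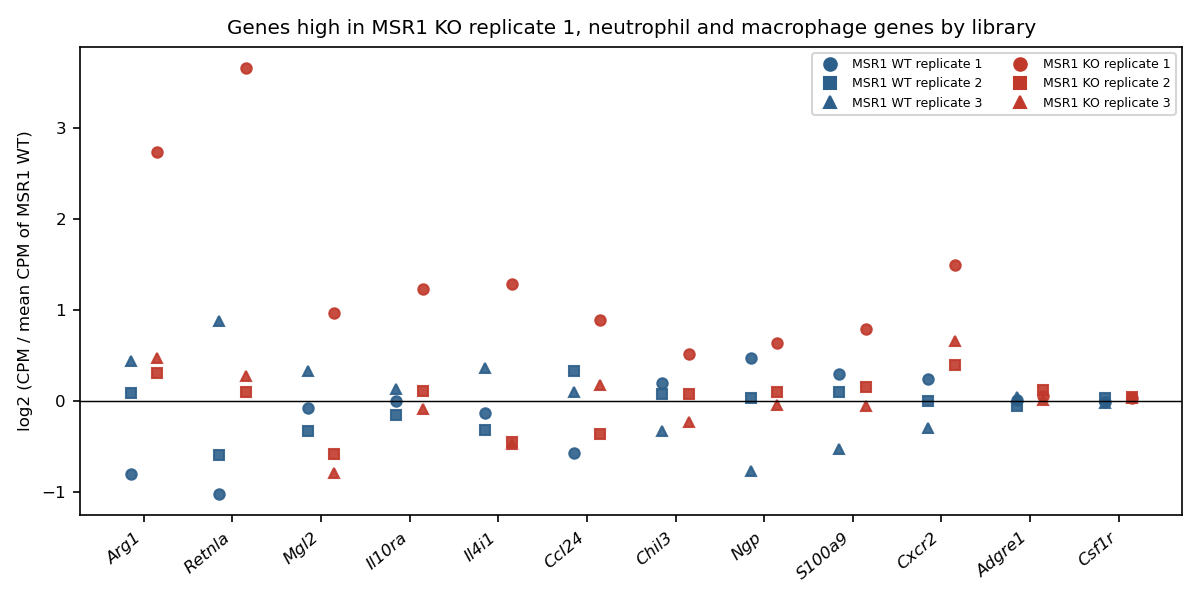
Levels by library on the same scale and with the same symbols (log2 of CPM over the mean CPM of MSR1 WT) for genes high in MSR1 KO replicate 1, with Ccl24, Chil3, 3 neutrophil genes (Ngp, S100a9, Cxcr2) and 2 macrophage genes (Adgre1, Csf1r). The red circle of MSR1 KO replicate 1 is far above the other 5 libraries for Arg1 and Retnla, higher by less for Mgl2, Il10ra and Il4i1, and level with them for Adgre1 and Csf1r.

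The stretch before a gene's start is where STAT6 would bind near a promoter, so the sequence of Retnla is shown with those of the markers that passed the test, Il4ra and Mrc1. The bases are from RefSeq on GRCm38.p6, in the plus-strand orientation of each gene, from 250 bases before the RefSeq start up to the annotated gene. They are chr16:48842359-48842550 for Retnla, chr7:125552021-125552119 for Il4ra and chr2:14229164-14229391 for Mrc1. Capitals mark a match to TTCNNNNGAA, the palindrome with the 4-base spacer that STAT6 prefers.
Retnla: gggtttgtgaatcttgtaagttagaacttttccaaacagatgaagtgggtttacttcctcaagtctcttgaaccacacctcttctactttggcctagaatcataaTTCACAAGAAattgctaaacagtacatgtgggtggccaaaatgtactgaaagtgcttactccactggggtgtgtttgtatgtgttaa
Il4ra: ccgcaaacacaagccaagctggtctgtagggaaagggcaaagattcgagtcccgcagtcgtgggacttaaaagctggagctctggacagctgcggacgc
Mrc1: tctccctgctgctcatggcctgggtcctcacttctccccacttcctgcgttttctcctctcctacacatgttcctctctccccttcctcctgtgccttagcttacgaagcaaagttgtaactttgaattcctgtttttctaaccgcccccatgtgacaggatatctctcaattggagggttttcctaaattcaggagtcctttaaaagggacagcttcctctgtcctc

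The match in Retnla lies 145 to 136 bases before its RefSeq start. Promoters of 6 of the 10 markers were at hand (Mrc1, Chil3, Cd163, Il4ra, Mgl2 and Retnla), and in 250 bases before the start Retnla was the only one with this motif, which 5.85% of 32851 promoters held. The related spacing TTCNNNGAA, which other STAT proteins prefer, was found in Chil3 and in 7.02% of all promoters. Both motifs read the same on either strand and they cannot share a start. A match is a description of the letters, and no match says only that they are not in this window.

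Chil3 (ENSMUSG00000040809.10, chromosome 3 from 106147554 to 106167564) encodes the chitinase-like protein Ym1, which neutrophils and their precursors also make. It had 188.9, 138.8 and 112.4 CPM in MSR1 KO and 151.1, 139.1 and 105.2 CPM in MSR1 WT. The libraries of both groups interleaved. The means of 146.7 ± 38.8 and 131.8 ± 23.8 CPM differed by a log2 fold change of 0.15 (SE 0.20, adjusted p = 0.75). Ngp, a granule protein of neutrophil precursors, had 333.9, 229.8 and 207.7 CPM in MSR1 KO and 296.4, 219.2 and 126.0 CPM in MSR1 WT, with the same highest, second and lowest library as Chil3, and its part in Chil3 was not tested. Of the 50-base words of Chil3 transcripts, 16.9% also occur in its paralog Chil4.

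Ccl24 (ENSMUSG00000004814.10, chromosome 5 from 135569937 to 135573049) encodes eotaxin-2, a chemokine that draws eosinophils. It was the least abundant marker, with 86, 40 and 68 counts in MSR1 KO and 36, 77 and 57 counts in MSR1 WT. The groups overlapped, and the log2 fold change was 0.32 (SE 0.40, adjusted p = 0.74).

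**Figure D4:**
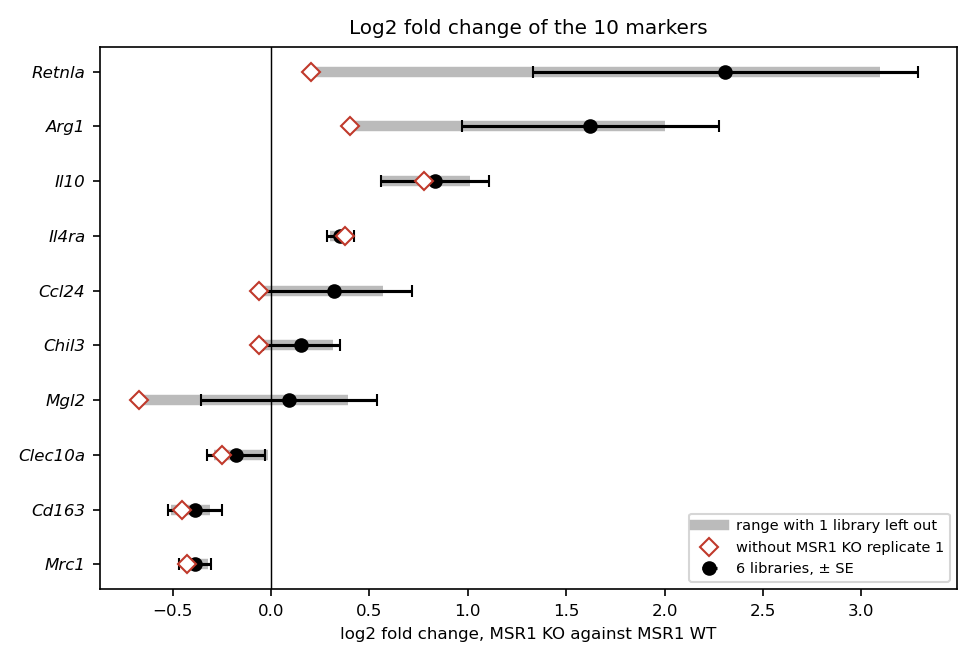
Log2 fold change of each marker between MSR1 KO and MSR1 WT (x axis, 0 is no difference), with the value from all 6 libraries and its SE in black, the range when 1 library is left out as a grey bar, and the value without MSR1 KO replicate 1 as an open diamond. Leaving that library out moves Retnla from 2.31 to 0.20, Arg1 from 1.62 to 0.40 and Mgl2 from 0.09 to -0.67, and takes Chil3 and Ccl24 to -0.06, while Il4ra, Il10, Cd163, Clec10a and Mrc1 keep their side of 0.

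Levels can be ordered between genes only per length of transcript, as RPKM, the CPM divided by the exon length in kilobases. In MSR1 WT, Mrc1 led with a mean of 304.0 ± 24.7 RPKM, followed by Chil3 at 80.8, Il4ra at 50.2 and Clec10a at 23.8 RPKM. No neighbours in that upper part of the order overlapped, nor did Clec10a and Cd163. Below them came Cd163 at 4.34, Retnla at 3.94, Il10 at 3.69, Mgl2 at 2.29, Arg1 at 1.65 and Ccl24 at 0.998 RPKM, where each overlapped its neighbour over the 3 libraries. By its mean over the 6 libraries Mrc1 ranked 122 among 16368 genes. In MSR1 KO the first 4 places were the same. Retnla came next there through replicate 1, with 49.7 RPKM in that library and 4.24 and 4.78 RPKM in the other 2, and from Clec10a downward each gene overlapped its neighbour.

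Further markers of alternative activation moved in both directions. Of 34 genes on that list 29 were tested, 1 rose and 5 fell, with a median log2 fold change of 0.047. With 1 library left out the median ran from -0.0138 (MSR1 WT replicate 1) to 0.0915 (MSR1 KO replicate 2), so its sign is not fixed. Tgm2, the transglutaminase that marks IL-4-treated macrophages of mouse and human, rose by 0.68 on the log2 scale (adjusted p = 0.033). The largest falls were those of Itgax, which encodes CD11c (log2 fold change -2.50, adjusted p = 0.0045), Mmp12, macrophage elastase (-2.32, adjusted p = 0.00045), and Atp6v0d2, a subunit of the vacuolar proton pump (-1.48, adjusted p = 0.0032). These 3 calls held without each single library, and Tgm2 was lost without any of the 6. CD11c is often read as a marker of the opposite, classical state. The other genes that fell were F13a1, coagulation factor XIII A (log2 fold change -1.29), and Stab1, the scavenger receptor stabilin-1 (-0.56). F13a1 also held without each single library, whereas Stab1 held only without MSR1 KO replicate 2 or MSR1 WT replicate 3.

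Around Arg1, 16 of 17 genes of arginine use and polyamine synthesis were tested, of which 2 rose and 1 fell, with a median log2 fold change of 0.14. With 1 library left out the median ran from 0.051 (MSR1 KO replicate 2) to 0.16 (MSR1 KO replicate 1). Ass1, which makes argininosuccinate from citrulline on the way back to arginine, rose by 0.78 on the log2 scale (adjusted p = 0.023). Gatm, which uses arginine to make the precursor of creatine, had 0.61 (adjusted p = 0.0093), and Oat, which turns ornithine toward proline, had -0.36 (adjusted p = 0.040). Arg2, the mitochondrial arginase, was at 0.72 and did not pass (adjusted p = 0.17). Gatm lost its call without MSR1 WT replicate 1, Ass1 held only without MSR1 KO replicate 3 or MSR1 WT replicate 3, and Oat held only without MSR1 WT replicate 3.

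Markers of the classical state that interferon-γ and LPS induce were compared in the same libraries. Of 17 genes 13 were tested, of which 4 rose and 0 fell, with a median log2 fold change of 0.59. They were Cxcl10, an interferon-induced chemokine (log2 fold change 1.27, adjusted p = 0.027), Fpr2, a formyl peptide receptor (0.72, adjusted p = 0.032), Irf5, a transcription factor (0.60, adjusted p = 0.024), and Cd86, a costimulatory ligand (0.53, adjusted p = 0.045). The count was 5 without MSR1 WT replicate 3 and at most 1 without any other library. Nos2, the inducible nitric oxide synthase that competes with arginase for arginine, was low, with 12, 22 and 31 counts in MSR1 KO and 5, 10 and 24 counts in MSR1 WT (adjusted p = 0.59). Il1b had 142, 172 and 173 counts against 78, 89 and 175 counts (adjusted p = 0.40).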

How the data were processed

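RNA-seq libraries of co-cultured macrophages (3 MSR1 KO, 3 MSR1 WT) were compared. Per the labels the submitters' processing notes name fastp 0.17.1, HISAT2 2.1.0, DESeq2 1.18.1 and R 3.4.3, whereas the methods name TopHat and FPKM. How reads were counted, with which strand setting and on which build is not given in the sources used here. The authors deposited 1 table with a raw count per gene and library, used here. It also holds a signal per library (the count divided by a size factor), and the log2 fold change and p-value of the authors' own comparison, none of which was used. 0 per-library columns were left without a mapping. GENCODE's GRCm38 annotation holds 52403 of the 52550 identifiers, 49909 of them with identical coordinates, so GRCm38 positions are given. Of 27 symbols turned into dates, 26 were restored, and where identifiers shared a symbol (89 symbols) the most abundant was used.

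The edgeR 4.0.16 package (R 4.3.3) was used to filter the counts (filterByExpr), to scale them (TMM, the trimmed mean of M-values) and to run the quasi-likelihood test (glmQLFit, glmQLFTest), with all 6 libraries, no covariate and Benjamini-Hochberg adjustment over 16402 genes. Dividing a log2 fold change by the square root of its F statistic gave the SE. CPM used TMM library sizes, and RPKM used the union of annotated exons. Since no source says how many mice gave the libraries, p-values measure the spread between these libraries, and the limit for a count of 0 covers counting error only. Ratios were compared by exact two-sided permutation tests (scipy 1.17.1). The methods were tested on simulated counts. Alternatives were DESeq2 1.42.0, limma 3.58.1 voom with library weights, robust dispersions, other scalings and filters, the replicate block and each library left out in turn. The markers and the 15 gene lists, written by hand, were chosen with earlier results of these data known. Genes named were the markers, Msr1, up to 3 genes per list with the largest change among those that passed, the 2 most abundant genes of each cell type list and the 3 genes most like each marker. Others were chosen because they are known parts of the pathway described or after their values were seen. Lists were described without a set test.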

Additional observations from a re-analysis of the deposited data

How the results depend on the processing

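At an adjusted p under 0.05, 1 of the 10 markers rose and 1 fell. DESeq2 called 2 higher (Il10 and Il4ra). Leaving out 1 library at a time gave 0 to 1 higher and 0 to 1 lower. By the study's definition 3 were higher with edgeR, but 1 (Il10) by DESeq2, by limma voom and with robust dispersions, and 0 to 3 with 1 library left out. None was lower, and 0 to 1 with 1 library left out, the 1 being Mgl2 without MSR1 KO replicate 1. The labels do not say whether same-numbered libraries were paired. The correlation of same-numbered deviations from the group means lay between -0.026 and 0.019, which with 3 libraries a group cannot exclude pairing. With the replicate block 0 markers rose and 0 fell at an adjusted p under 0.05 and 1 was higher by the study's definition, and over all genes the block called 59 higher and 78 lower, beside 369 and 436 without it. Signs turned for markers near 0. Over the 6 fits with 5 libraries, Chil3 ran from -0.063 to 0.32 and Ccl24 from -0.060 to 0.57 on the log2 scale, both lowest without MSR1 KO replicate 1. Mgl2 ran from -0.67 to 0.39 and was at -0.022 with limma voom, -0.10 with the block, -0.67 without MSR1 KO replicate 1 and -0.05 without MSR1 WT replicate 2. Mrc1 and Il4ra kept their calls under the other scalings and filters, DESeq2, limma voom and robust dispersions. Over all genes DESeq2 called 720 higher and 848 lower, and edgeR without a filter 237 and 288. Without MSR1 WT replicate 1 the counts were 18 and 53. The causes were not tested. The log2 fold changes of Arg1 (SE 0.65) and Retnla (SE 0.98) had an unadjusted p of 0.037 and 0.045 by edgeR's quasi-likelihood test. After adjustment neither passed. With 3 libraries a group, and by the adjusted p, neither can be told from 0 or from a change of several-fold.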

Other observations

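Markers of cells related to macrophages also differed. Among the monocyte markers, Plac8 (log2 fold change 1.89) and Ly6c2, which encodes a surface antigen of inflammatory monocytes (1.40), rose, and F13a1 fell. Plac8 and F13a1 held without each single library, and Ly6c2 held only without MSR1 WT replicate 3. The summed level was 1150 to 1441 CPM in MSR1 KO and 1575 to 1615 CPM in MSR1 WT. Of 10 dendritic cell markers tested, 1 (Dpp4) rose, with sums of 26.9 to 31.1 CPM in MSR1 KO and 17.3 to 19.8 CPM in MSR1 WT. Of 9 lymphoid, mast and basophil markers tested, 1 (Kit) rose, a call that held only without MSR1 WT replicate 3, while Dpp4 held only without MSR1 WT replicate 2 or 3. Of 15 macrophage markers, 3 rose, namely Fcgr1, a high-affinity receptor for IgG (log2 fold change 1.14), Aif1 (0.67) and Ptprc (0.35), and 0 fell. Fcgr1 lost its call without MSR1 KO replicate 1 or MSR1 WT replicate 1, Aif1 held only without MSR1 KO replicate 1 or MSR1 WT replicate 3, and Ptprc only without MSR1 KO replicate 3. The paralogs of the markers were low or did not pass. Of 22 paralogs 11 were tested, 0 passed by edgeR, 6 had an unadjusted p under 0.05 and DESeq2 called 2. The count of 6 was not set beside the share of all tested genes at that threshold.

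Some genes followed a marker closely over the 6 libraries, among 13610 genes with at least 1 CPM. The correlations below are of log2 CPM, are the highest of many, share the genotype split and the libraries, and are given as a description only. Mrc1 was most like Slc22a23 (Pearson's r = 0.999), Dtx3 (0.995) and Maoa (0.994). Il4ra was most like Grina and Mlkl (both 0.997), and Il10 most like Cd93 (0.999). Arg1 and Retnla, both high in MSR1 KO replicate 1, had r = 0.977 with each other, and each was most like Fbxl12 (0.99 and 0.986).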
